A study of Mus musculus with 20 samples.

Results

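The 4 nuclear factor I genes, Nfia, Nfib, Nfic and Nfix, and the 3 Zhx genes, Zhx1, Zhx2 and Zhx3, were followed in the mouse aorta across 10 doses of proton or gamma radiation. These 7 genes were taken by symbol from the 21078 genes of the table of sense-strand counts. Nfix and Zhx2 were selected because their counts fell with gamma dose, and the other 5 because they complete both families. The gamma values of Nfix and Zhx2 are therefore given as a description, without a test, while the proton mice played no part in the choice. All 7 genes passed the filter on low counts, a mean of at least 5 counts over the 20 mice, as did 13124 genes in all.

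The animals were 20 male C57BL/6 mice aged 10 to 12 weeks, and no transgene or deletion is named for any of them. Irradiated mice received 1 whole-body exposure to high-energy protons or to gamma rays, the 0 cGy mice were sham controls put into the irradiator without exposure, and the thoracic aorta was taken 4 hours later. The doses in each series were 0, 5, 10, 25, 50, 75, 100, 125, 150 and 200 cGy, with 1 mouse per dose and radiation type and a 0 cGy mouse in each. No dose was repeated within a radiation type, so errors below come from the scatter of mice around a trend and not from repeat mice at 1 dose.

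Nuclear factor I proteins bind DNA as dimers at palindromic sites whose arms read TTGGC, and they activate or repress transcription depending on the gene and tissue. They are known for setting developmental timing: Nfia in glia, Nfib in the lung, Nfic in the tooth root, and Nfix in the passage from embryonic to fetal muscle. The Zhx proteins carry C2H2 zinc fingers and several homeodomains, form dimers with one another, and act mainly as repressors. They bind the A subunit of NF-Y, the factor of the CCAAT box, and Zhx2 is known for silencing alpha-fetoprotein in liver after birth.

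Upstream sequence was available for Nfia, Nfic, Nfix and Zhx3, 4 of the 7 genes, in 7 windows of 250 bases just before a RefSeq start site (build GRCm38.p6). Nfib, Zhx1 and Zhx2 were without an entry. The windows were searched on both strands for TTGGC, an arm of the nuclear factor I site, and for CCAAT, the NF-Y box. The letters of both motifs overlap in GCCAAT. Of 32851 promoter windows of this length in the genome, 41.5% held TTGGC and 33.8% held CCAAT, so a match is common. Below are 1 window of Nfix, a gene with a falling count, 1 of Nfic, which moved with it, and 1 of Zhx3, which moved the other way. All lie on the minus strand, are written 5′ to 3′, and have motif letters in capitals (TTGGC or GCCAA, and CCAAT or ATTGG).

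Nfix (chr8:84775829-84776078): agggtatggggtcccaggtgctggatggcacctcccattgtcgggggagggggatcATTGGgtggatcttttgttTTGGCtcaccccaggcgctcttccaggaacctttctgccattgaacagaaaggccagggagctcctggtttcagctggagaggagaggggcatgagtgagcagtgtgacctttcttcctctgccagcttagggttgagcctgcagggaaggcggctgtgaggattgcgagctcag
Nfic (chr10:81427174-81427423): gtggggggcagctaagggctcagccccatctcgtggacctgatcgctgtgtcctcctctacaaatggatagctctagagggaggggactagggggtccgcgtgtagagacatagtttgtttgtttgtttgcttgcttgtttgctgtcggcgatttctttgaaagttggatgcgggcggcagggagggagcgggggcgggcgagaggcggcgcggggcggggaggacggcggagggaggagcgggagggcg
Zhx3 (chr2:160872991-160873240): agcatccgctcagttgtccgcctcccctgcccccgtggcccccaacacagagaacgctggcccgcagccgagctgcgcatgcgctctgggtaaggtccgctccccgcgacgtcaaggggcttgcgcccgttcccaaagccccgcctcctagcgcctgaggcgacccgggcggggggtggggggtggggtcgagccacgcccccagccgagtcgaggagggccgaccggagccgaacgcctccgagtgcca

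This Nfix window held 1 CCAAT box and 1 TTGGC arm, and neither motif was found in the Nfic or Zhx3 windows. Of the other Nfix windows, chr8:84772876-84773125 held 1 of each, chr8:84773411-84773660 held 1 CCAAT box and chr8:84780083-84780332 held neither. The Nfia window, chr4:97581693-97581942, held 1 CCAAT box. Which start sites are used in the aorta was not measured. A match says only that the letters are there.

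In the mm9 annotation, Nfix lies at chr8:87223775-87324243 and Nfic at chr10:80858931-80893750, both on the minus strand. Nfia, on the plus strand, lies at chr4:97439425-97868605, and Nfib, on the minus strand, at chr4:81936077-82351654. Zhx1 (chr15:57878558-57908044, minus strand) and Zhx2 (chr15:57526220-57671388, plus strand) are neighbours on chromosome 15, and Zhx3 is at chr2:160569663-160698734 on the minus strand. Exons of 4 of the genes overlap those of a gene on the other strand, among them Lyl1 for Nfix and Plcg1 for Zhx3. Counting was by strand.

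Each library summed to between 6051657 and 6058006 counts, because the authors had resampled the reads to a common depth. All 7 listed p53 target genes had slopes above 0 with gamma and with proton dose. In each series 6 rose at an edgeR adjusted p of at most 0.1, beside 5.44% (gamma) and 1.6% (proton) of all genes tested. Over 0 to 125 cGy, 6 did so in gamma and 4 in proton mice, beside 0.221% and 0.0991% of all genes. The study had reported Cdkn1a, Mdm2, Ccng1, Aen, Bax and Eda2r as dose-responsive in these same libraries, so their rise is no independent check. Cdkn1a, the p21 inhibitor of the cell cycle, rose by 1.60 (log2 per 100 cGy, SE 0.24) with gamma and 1.39 (SE 0.22) with proton radiation. Smooth muscle markers were abundant in all 20 mice, with a summed count of 160256 to 324494 over 6 genes. The proton mouse at 75 cGy stood apart. It had the lowest smooth muscle sum and the highest sums of brown adipocyte markers, 14985, and of striated and heart muscle markers, 10168. The 4 mice at 150 and 200 cGy also stood apart in base composition: the correlation across 9702 genes of a gene's deviation in the library with its transcript's GC content was -0.401 to -0.349, against -0.018 to 0.284 in the 16 other mice. Highest dose and base composition cannot be told apart in these libraries.

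Per kilobase of annotated exon, Nfic and Nfix were the most abundant of the 7 genes in this tissue. Nfic averaged 247.0 counts per kilobase (SD 41.1, n = 20 mice over all doses) and Nfix 246.7 (SD 43.5). These levels overlapped, with Nfic the higher in 13 of the 20 mice. Nfib followed at 99.8 (SD 5.8), below Nfix in every mouse and without overlap, and Nfia at 93.6 (SD 12.0), below Nfib in 14 mice. The Zhx genes were lower, at 75.7 (SD 10.3) for Zhx2, 69.6 (SD 8.7) for Zhx1 and 38.8 (SD 7.3) for Zhx3. Neighbours overlapped along this order from Nfib to Zhx1, and Zhx3 stood below Zhx1 in all 20 mice without overlap. The order of the Zhx genes depends on exon length. By mean count, Zhx3 (421.25) was above Zhx1 (362.65) and Zhx2 (335.9). Annotated exons span 10855 bases in Zhx3, 5212 in Zhx1 and 4435 in Zhx2, and which of them are used in the aorta was not measured.

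**Figure D1:**
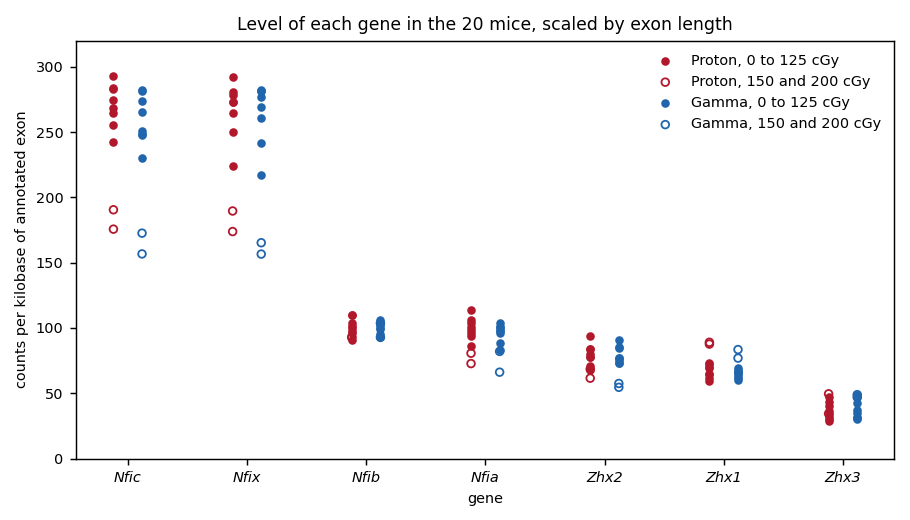
Counts per kilobase of annotated exon (vertical axis, linear) for each gene (horizontal axis) in the 20 mice; each point is 1 mouse, red for proton and blue for gamma, open for 150 and 200 cGy. Nfic and Nfix lie above all other genes, and their open points, the highest doses, lie below all their filled ones.

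Nfix and Nfic had their lowest counts at the highest doses after both kinds of radiation. Zhx2 was lower at high dose as well, Zhx3 was higher after gamma radiation, and Nfib varied little. Slopes are from edgeR, as log2 change per 100 cGy. Genes were called at a Benjamini-Hochberg adjusted p of at most 0.1 over all genes tested. In whole aorta, fewer cells of a type and less RNA per cell cannot be told apart. The sum of 7 brown adipocyte markers ranged from 961 to 14985 between mice. The sum of 5 fibroblast markers tended to be lower at the highest doses, with 9965 to 18329 counts in the 4 mice at 150 and 200 cGy and 16092 to 31657 in the 16 others, ranges that overlapped. Its lowest value was in the gamma mouse at 150 cGy, which also had the lowest Nfix and Nfic counts. This pairing did not hold in every mouse. The gamma mouse at 10 cGy had the lowest fibroblast sum of the 16 others, 16092, with 2071 counts of Nfix and 1839 of Nfic. The gamma mouse at 200 cGy had a higher sum, 18329, with 1217 and 1128. All 5 fibroblast markers had gamma slopes below 0, none of them called, and none had a count of 0 in any mouse. Col1a1 had a gamma slope of -0.53 (SE 0.21). Dcn, Dpt, Pdgfra and Lum had -0.115 to -0.038, each smaller in size than its SE. In proton mice 4 of the 5 were below 0, with a median slope of -0.02. Over 0 to 125 cGy, 3 were below 0 in gamma mice and 1 in proton mice. Of all marker genes read, only Myocd, a coactivator of smooth muscle genes, was called (gamma slope 1.05, adjusted p = 0.0357). Of all genes tested, 5.44% were called up with gamma dose. Of the 6 smooth muscle markers, 4 had gamma slopes below 0, among them Smtn at -0.34 (adjusted p = 0.101). With the brown adipocyte score in the model, the gamma slopes of Nfic and Zhx3 were -0.36 (adjusted p = 0.0134) and 0.38 (adjusted p = 0.0313). The part of fibroblasts and the other cell types in these changes was not tested. Lymphocyte markers were near 0, with sums of 0 to 43 over 5 genes.

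**Figure D2:**
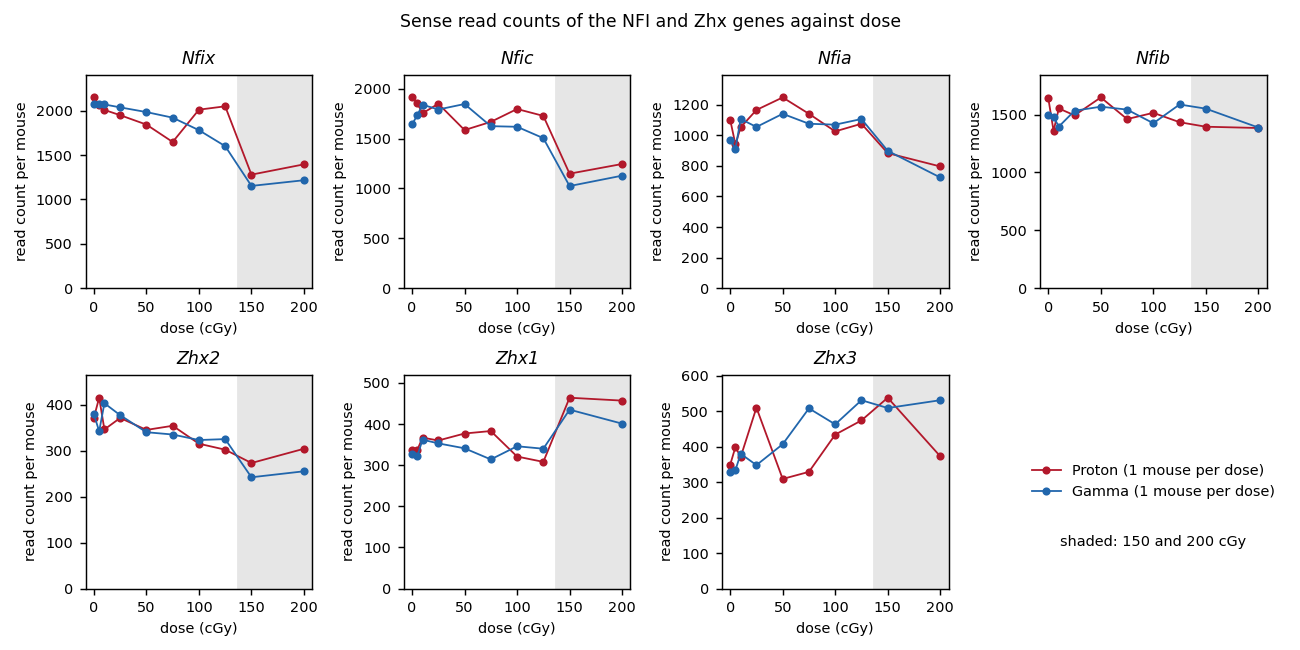
Sense-strand read counts (vertical axis, linear from 0) against dose in cGy (horizontal axis) for the 7 genes; each point is 1 mouse, red for proton and blue for gamma, and 150 and 200 cGy are shaded. Nfix, Nfic and Nfia drop and Zhx1 steps up in the shaded part of both series, and Zhx3 climbs earlier, in the gamma series.

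Nfix, the gene selected for its fall, ranged from 1153 to 2081 counts in the gamma mice, with a median of 1953.5. It went from 2081 at 0 cGy through 1985 at 50 cGy and 1601 at 125 cGy to 1153 at 150 cGy and 1217 at 200 cGy. Each gamma mouse from 0 to 125 cGy had a lower count than the one at the dose before, and the single step upward was from 150 to 200 cGy. The gamma slope was -0.44 (SE 0.08), so the count decreased by 26.2% per 100 cGy, and over 0 to 125 cGy alone it was -0.31 (SE 0.09).

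In the proton mice, which played no part in the selection, Nfix was read with 1 mouse per dose. Its course there was not tested against that in gamma mice. Counts ranged from 1280 to 2150, with a median of 1979.5. They fell from 2150 at 0 cGy to 1648 at 75 cGy, were 2012 and 2050 at 100 and 125 cGy, and then 1280 and 1396 at 150 and 200 cGy. The low point at 75 cGy is the mouse with the low smooth muscle sum. The proton slope was -0.26 (SE 0.08) and did not pass the threshold (edgeR adjusted p = 0.114). Without the pair of mice at 75 cGy it was -0.27 and passed (adjusted p = 0.084). With offsets for GC content and length it was -0.23 and did not pass (adjusted p = 0.144). From 0 to 125 cGy the proton slope was -0.08 (SE 0.09, adjusted p = 0.983).

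Nfic, a family member not selected on its values, fell with gamma dose. Its gamma counts ranged from 1024 to 1846, with a median of 1632.5, and were 1641 at 0 cGy, 1846 at 50 cGy, 1504 at 125 cGy, 1024 at 150 cGy and 1128 at 200 cGy. The slope was -0.37 (SE 0.08, edgeR adjusted p = 0.0183), so the count decreased by 22.5% per 100 cGy. Of the 5 genes not selected on gamma values it was the single one called down, where 2.21% of all genes tested were. Without the gamma mouse at 200 cGy the slope was -0.38 and the adjusted p 0.178. Over 0 to 125 cGy it was -0.19 (SE 0.09, adjusted p = 0.792).

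After proton radiation, Nfic ranged from 1148 to 1912 counts, with a median of 1740.0. The 2 lowest were 1148 and 1245, at 150 and 200 cGy. The slope of -0.28 (SE 0.08) was short of the threshold (adjusted p = 0.110). Like Nfix, Nfic passed in proton under some other settings, with an adjusted p of 0.0375 in DESeq2 and 0.0926 without the pair at 75 cGy. Under others it did not. The adjusted p of Nfic in edgeR was 0.165 with offsets for GC content and length, 0.309 with dose as rank and 0.978 with log2(dose + 1). For Nfix these were 0.144, 0.297 and 0.978. The same settings called 5, 1 and 0 of all genes down in proton mice. With log2(dose + 1) no gene was called down, so that setting does not bear on these genes. Without TMM factors 30 genes were called down and neither of these passed (edgeR adjusted p of 0.104 for Nfic and 0.115 for Nfix).

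Nfia and Nfib gave no called slope. Nfia had 724 to 1140 counts in gamma mice (median 1061.5) and 796 to 1247 in proton mice (median 1063.5), with its lowest counts at 150 and 200 cGy in both. Its slopes were -0.16 (SE 0.08, adjusted p = 0.289) for gamma and -0.17 (SE 0.08, adjusted p = 0.355) for proton radiation. Nfib, with 1388 to 1587 counts in gamma and 1359 to 1648 in proton mice, spanned no more than 1.21 times from lowest to highest in either series. The 95% interval of its gamma slope ran from -0.11 to 0.08, and that of its proton slope from -0.16 to 0.03.

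Zhx2, the other gene selected for its gamma fall, had 242 to 403 counts in gamma mice, with a median of 337.5. The highest was at 10 cGy, and the 2 lowest, 242 and 255, were at 150 and 200 cGy, below every gamma mouse at lower dose. The slope was -0.31 (SE 0.06), and -0.24 (SE 0.08) over 0 to 125 cGy.

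In proton mice, Zhx2 fell with dose as well. Counts ranged from 273 to 415, with a median of 345.5, and were 372 at 0 cGy, 415 at 5 cGy, 315 and 302 at 100 and 125 cGy, and 273 and 304 at 150 and 200 cGy. The slope of -0.21 (SE 0.06) passed the threshold (edgeR adjusted p = 0.0898). It made Zhx2 the single gene of the 7 called in proton mice, among 0.16% of all genes called down. The call was lost on leaving out any 1 of 11 of the 20 mice, with adjusted p-values of up to 0.365, which came without the proton mouse at 150 cGy. Over 0 to 125 cGy the proton slope was -0.28 (SE 0.08) with an unadjusted p of 0.00254 and an adjusted p of 0.621. The proton slopes of Nfix, Nfic and Nfia were nearer to 0 over these doses than over all 10, and that of Zhx2 was not.

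Zhx3 rose with gamma dose, the single gene of the 5 called up, where 5.44% of all genes were. Its gamma counts ranged from 328 at 0 cGy to 531 at 125 and 200 cGy, with a median of 435.0. The slope was 0.36 (SE 0.10, edgeR adjusted p = 0.0518), or 28.6% more per 100 cGy. The climb came before the highest doses: the 3 mice at 75 to 125 cGy averaged 1.441 times the 3 at 0 to 10 cGy, and the slope over 0 to 125 cGy was 0.50 (SE 0.16, adjusted p = 0.454). The call was lost on leaving out any 1 of 5 gamma mice (adjusted p of 0.11 to 0.199) and with log2(dose + 1) in place of dose (0.248). With offsets for GC content and length, the slope was 0.20 over 0 to 200 cGy (adjusted p = 0.483). Over 0 to 125 cGy it was 0.50 with these offsets (adjusted p = 0.392). In proton mice Zhx3 was scattered, from 309 at 50 cGy to 538 at 150 cGy, with 510 at 25 cGy and 373 at 200 cGy, and its slope was 0.13 (SE 0.10, adjusted p = 0.667).

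Zhx1 had no called slope in either series. Gamma counts lay between 314 and 362 from 0 to 125 cGy and were 435 and 401 at 150 and 200 cGy. Proton counts lay between 308 and 383, and were 464 and 457 at the same 2 doses. Its slopes were 0.13 (SE 0.07, adjusted p = 0.371) for gamma and 0.18 (SE 0.07, adjusted p = 0.286) for proton radiation. The step at the highest doses was upward in both series, the reverse of Nfix, Nfic and Nfia.

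**Figure D3:**
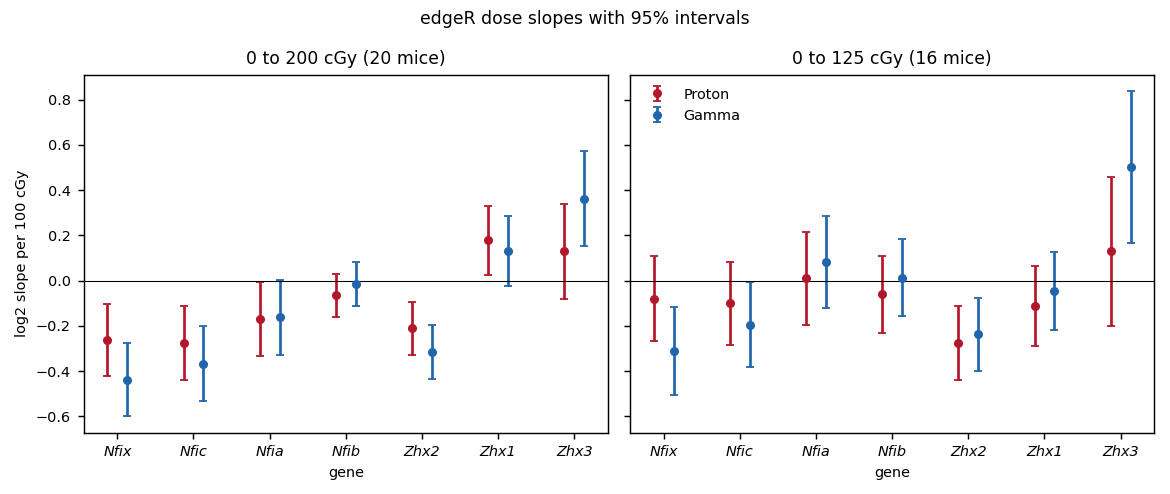
Dose slopes from edgeR (vertical axis, log2 change per 100 cGy) with 95% intervals for the 7 genes (horizontal axis), fitted over 0 to 200 cGy on the left and 0 to 125 cGy on the right; red is proton and blue gamma. Nfix, Nfic and Zhx2 lie below 0 in all 4 fits, the proton values of Nfix and Nfic move to -0.08 and -0.10 on the right, and Zhx3 stays highest in the gamma series.

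Over 0 to 125 cGy, in a fit to 16 mice, none of the 5 genes tested in gamma mice and none of the 7 in proton mice was called by edgeR or by DESeq2. Few genes were: 0.221% up and 0.0381% down in gamma, and 0.0991% up and 0.00762% down in proton mice. At an unadjusted p under 0.05, edgeR gave 782 of 13124 genes in gamma and 600 in proton mice. Nfic in gamma mice, Zhx3 in gamma mice and Zhx2 in proton mice were among these, with unadjusted p of 0.0435, 0.00619 and 0.00254.

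The rank order of counts against dose gave a check that uses no straight line. With an exact two-sided permutation test over all orders of the 10 doses, Zhx3 rose in gamma mice (Spearman rho 0.954, adjusted p = 0.0319), where 1.17% of all genes were called up. Nfic, called by edgeR, was not called here (rho -0.758, exact permutation adjusted p = 0.196), and 0.625% of genes were called down. The coefficients of the selected genes were -0.988 for Nfix and -0.915 for Zhx2. Over 0 to 125 cGy the rank test called 0 of 13124 genes in gamma mice, with a smallest adjusted p of 0.163. The loss of the Zhx3 call at these doses (rho 0.952) therefore says nothing about Zhx3. In proton mice none of the 7 was called, with 0.0838% of genes called up and 0% down at the threshold and 519 up and 357 down at an unadjusted p under 0.05. Zhx2 had the strongest proton coefficient (rho -0.891, exact permutation p = 0.00115, adjusted p = 0.284), followed by Nfic at -0.818 and Nfix at -0.685.

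The 4 mice at 150 and 200 cGy were then compared with the 16 at lower dose by the position of their counts, with no test. In the proton series Nfix, Nfic and Nfia lay below all 8 lower-dose mice, which 8.25% of all genes did, and Zhx1 lay above them, with 10.8% of genes. In the gamma series Nfic and Nfia lay below, against 8.31% of genes, and Zhx1 above, against 13.4%. Nfix and Zhx2 lay below too, but they were selected for their gamma fall and are not set against that share. Mean counts at 150 and 200 cGy were 0.681 (proton) and 0.61 (gamma) of those at 0 to 125 cGy for Nfix, 0.677 and 0.633 for Nfic, and 0.768 and 0.769 for Nfia. For Zhx2 they were 0.818 and 0.704, and for Zhx1 1.32 and 1.236. Nfib (0.918 and 0.977) and Zhx3 (1.148 and 1.261) overlapped with the lower doses in both series.

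These are the libraries with the lower counts of GC-rich genes, and the transcripts of the 7 genes differ in GC content. Nfic (57.45%) and Nfix (57.1%) are GC-rich, above 86.7% and 85.2% of the genes tested, whose median was 50.4%. Zhx2 has 52.78% and Zhx3 48.73%, while Nfib (43.33%), Nfia (42.67%) and Zhx1 (42.59%) are low. Nfia, at nearly the GC content of Zhx1 but with a longer transcript (9526 against 5212 bases), moved in the opposite direction from it at the highest doses. The part of GC content and length in these changes was not tested. With offsets for GC content and length in each library, the gamma slope of Nfic was -0.34 (adjusted p = 0.0244) and still called, and that of Nfix was -0.40. The gamma slope of Zhx2 was -0.31. Over all doses, the gamma slope of Zhx3 dropped to 0.20 and lost its call (adjusted p = 0.483). The proton call of Zhx2 was lost at a slope of -0.20 (adjusted p = 0.122). The proton slopes of Nfic and Nfix, not called before, were -0.26 (adjusted p = 0.165) and -0.23 (adjusted p = 0.144). The slopes of Nfia and Nfib moved downward under this correction, to -0.36 (adjusted p = 0.181) and -0.22 (adjusted p = 0.147) for gamma, and that of Zhx1 went to 0.01.

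**Figure D4:**
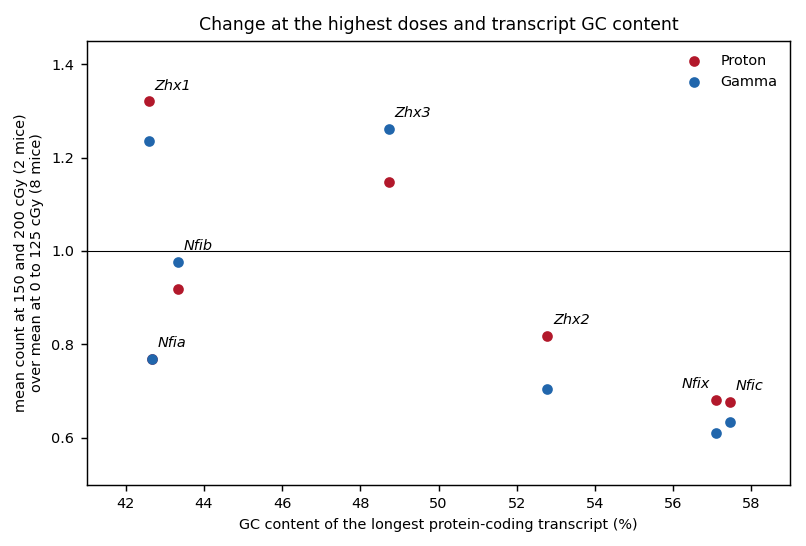
Mean count of the 2 mice at 150 and 200 cGy over that of the 8 mice at 0 to 125 cGy (vertical axis, linear ratio) against the GC content of each gene's transcript in percent (horizontal axis), red for proton and blue for gamma; the 2 points of Nfia coincide. Nfic and Nfix, the richest in GC, have the lowest ratios. Nfia and Zhx1, close in GC content but not in transcript length, lie on opposite sides of 1.

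No difference between proton and gamma slopes was called for the 5 genes to which the test could be applied. Every adjusted p was 1, and 0% of all genes passed by edgeR, with 254 of 13124 at an unadjusted p under 0.05 and 0 called by DESeq2. The widest gap was in Zhx3, where the proton slope was lower by 0.23 (95% interval of proton minus gamma -0.53 to 0.07), so a gap of that size could not be resolved with 10 mice per type. For Nfic the difference was 0.09 (-0.14 to 0.32), for Zhx1 0.05 (-0.17 to 0.26), for Nfib -0.05 (-0.19 to 0.09) and for Nfia -0.01 (-0.24 to 0.22). The gaps of the selected genes, 0.18 for Nfix and 0.10 for Zhx2, contain the gamma slopes they were picked by and were not tested. Levels at matched doses differed by -0.10 (Zhx3) to 0.06 (Nfic) in log2 of proton over gamma, with adjusted p of at least 0.8. Of all genes 0% were called in that comparison by edgeR, with 1032 at an unadjusted p under 0.05. DESeq2 called 17 up and 53 down, none of them among the 7.

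**Figure D5:**
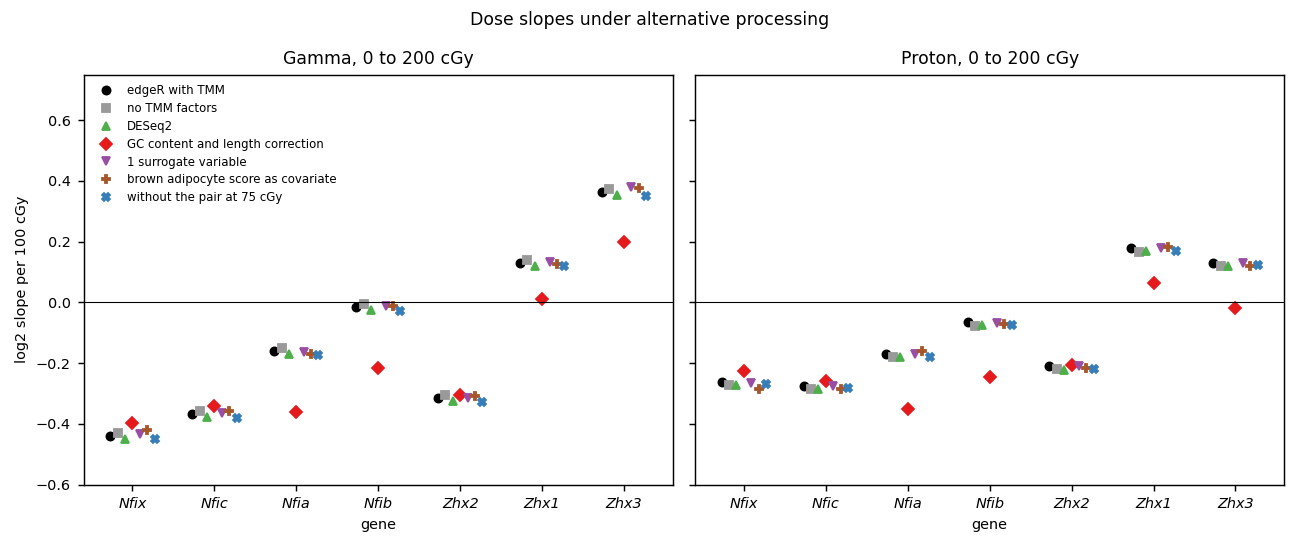
Dose slopes over 0 to 200 cGy (vertical axis, log2 change per 100 cGy) of the 7 genes (horizontal axis) in gamma (left) and proton mice (right) under 7 ways of processing, each with its own marker. The points of a gene lie close together except for the GC content and length correction (red diamonds), which lowers Nfia, Nfib, Zhx1 and Zhx3 and leaves Nfix, Nfic and Zhx2 near their values.

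The median slope of the 7 genes was -0.171 for proton radiation, beside 0.0018 over all genes tested. No gamma median of the 7 is set against all genes, because Nfix and Zhx2 were chosen for falling. The gamma slopes of the 5 other genes lay on both sides of the all-gene median of 0.0128. They were -0.37 for Nfic, -0.16 for Nfia, -0.02 for Nfib, 0.13 for Zhx1 and 0.36 for Zhx3.

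Genes of related roles were read for comparison, from lists made for that purpose. The wider class of zinc finger homeobox factors had 10 of 11 genes above the count minimum, and none was called in either series. By mean count the leading ones were Zeb1 (slope 0.15 in each series), Zfhx3 (-0.12 for gamma, -0.06 for proton) and Zeb2 (0.13 in each), factors known for roles in mesenchymal cell state and differentiation. The NF-Y subunits, to which Zhx proteins bind, gave no call in 3 genes: Nfya had slopes of -0.13 for gamma and 0.02 for proton, Nfyb -0.05 and 0.12, and Nfyc -0.004 and -0.03. Of genes known to be repressed by Zhx2 in liver, Gpc3 had slopes of -0.10 (SE 0.30) for gamma and 0.11 (SE 0.31) for proton, not called. H19 was below the count minimum at a mean of 4.9 counts, and Afp was not analysed here.

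The genes whose counts most resembled those of 3 of the factors over the 20 mice were found by Spearman correlation among 9817 genes averaging 50 or more counts. For Nfix these were Prelp (0.934), a matrix proteoglycan, Sema3f (0.91), a secreted guidance factor, and Six5 (0.898), a homeobox factor. For Zhx2 they were Rxra (0.836), the retinoid X receptor, Clip2 (0.823), a microtubule-binding protein, and Dhrs3 (0.821), a retinal reductase. For Zhx3 they were Fam46b (0.868), Nudt4 (0.866), a phosphohydrolase of inositol pyrophosphates, and Klf15 (0.86), a zinc finger factor of metabolic control. Over the 16 mice at 0 to 125 cGy the coefficients were 0.874 to 0.876 for the genes of Nfix, 0.688 to 0.774 for those of Zhx2 and 0.782 to 0.844 for those of Zhx3. The mice share dose, depth and base composition across genes, and these coefficients are a description.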

How the data were processed

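Polyadenylated RNA of 20 aortas, 1 mouse per dose and radiation type, was sequenced as stranded paired reads. According to the study's methods and the submitters' processing notes, the authors called bases with CASAVA 1.8.1, aligned with STAR 2.5.2a to mm9, resampled the libraries to a common depth and deposited sense-strand counts per gene. The deposited counts are whole numbers, 6051657 to 6058006 per library, with no further scaling. A count of 0 would allow up to 3 counts per library, for counting error only, and none of the 7 genes came near it. Exon annotation was GENCODE M1.

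The 7 genes and all comparison lists were chosen with earlier results of these data known. The 13124 genes averaging 5 or more counts were tested with edgeR 4.0.16 (R 4.3.3): TMM scaling, quasi-likelihood F test, 1 intercept and 1 slope on dose per radiation type, Benjamini-Hochberg over all genes, threshold 0.1. Levels were compared with dose as a block. The exact two-sided permutation test of Spearman's rho used Python 3.11.15. Nfix and Zhx2 received no test on gamma values. From each comparison list, genes past the threshold or the 3 with the highest mean count could be named, and for Nfix, Zhx2 and Zhx3 the 3 genes most alike. Scripts were tested on simulated data. Alternatives were no TMM factors, DESeq2 1.42.0, count minimums of 1 and 50, dose as rank or log2(dose + 1), GC content and length offsets, 1 surrogate variable (sva 3.50.0), a brown adipocyte covariate, no pair at 75 cGy and each mouse left out. A fit of the slope difference within pairs of equal dose was added after seeing the data.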

Additional observations from a re-analysis of the deposited data

How the results depend on the processing

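Of 653 recomputed values of single genes with a test, 592 kept their direction and their side of the threshold, 24 lost a call, 19 gained one and 18 changed sign. Most were not called to begin with, so the 592 do not measure how stable the calls were. Only a called value could lose a call. In the 20 fits without 1 mouse, the proton call of Zhx2 was lost in 11, the gamma call of Zhx3 in 5 and that of Nfic in 1. Without 1 mouse, the gamma slopes of the selected genes ran from -0.47 to -0.38 for Nfix and from -0.35 to -0.27 for Zhx2. The cause was not tested in any of these. Gamma calls among the 5 genes tested numbered 2 (Nfic and Zhx3), 0 with log2(dose + 1) in place of cGy, 1 (Nfic) with the GC content and length correction, and 0 to 2 without 1 mouse. Zhx3 lost its call without the gamma mouse at 0 cGy (adjusted p = 0.123), 5 cGy (0.133), 25 cGy (0.11), 150 cGy (0.144) or 200 cGy (0.199), and Nfic without the one at 200 cGy (0.178). Proton calls numbered 1 (Zhx2). They were 3 (Nfic, Nfix and Zhx2) with DESeq2, a count minimum of 50, 1 surrogate variable, the brown adipocyte covariate or no pair at 75 cGy. These settings called more of all genes down. Proton calls were 0 with dose as rank, log2(dose + 1) or the GC content and length correction, and 0 to 4 without 1 mouse. The 4 included Zhx1 and came without the proton mouse at 125 cGy, and 3 came without the proton mouse at 75 or 100 cGy or the gamma mouse at 150 cGy. None was called without the proton mouse at 0, 5, 10, 25, 50, 150 or 200 cGy or the gamma mouse at 25, 50, 75 or 200 cGy. The gamma rank trend called 1 gene, Zhx3, and over 0 to 125 cGy 0 of all 13124 genes.

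Every sign change was in a value that was not called. Nfib in gamma mice had a slope of 0.0006 with log2(dose + 1) and -0.0389 to 0.0234 without 1 mouse, against -0.02. Its rank coefficient of 0.127 stood against a line on log2 counts of -0.0069. Zhx3 in proton mice had -0.0185 with the GC content and length correction. The difference between slopes was 0.0081 for Nfia with that correction, 0.0097 with the brown adipocyte covariate and -0.1415 to 0.0649 without 1 mouse, and for Zhx1 -0.0219 to 0.0924 without 1 mouse. Over 0 to 125 cGy the rank coefficient was 0.563 for Nfia in gamma mice, 0.0952 for Nfia in proton mice and -0.204 for Zhx1 in proton mice. Over all genes, GC content and length correction left 238 up and 135 down for gamma and 90 up and 5 down for proton, against 714, 290, 210 and 21. The lowest counts over the alternatives on all mice came with log2(dose + 1), 38 up and 7 down for gamma and 22 up and 0 down for proton, and the highest were 1230 up and 583 down for gamma and 550 up for proton with 1 surrogate variable and 145 down for proton with the brown adipocyte covariate. Leaving out 1 mouse gave 54 to 941 up and 23 to 642 down for gamma, and 28 to 547 up and 1 to 97 down for proton. The difference between slopes was also fitted with mice of equal dose paired as a replicate block, chosen after seeing the data. It called 0 of the 5 genes, as without the block, with -0.24 for Zhx3 and 0.09 for Nfic. The comparison of levels called 0, paired or unpaired. A slope within 1 radiation type could not be paired in this way, since a pair is a dose. With 1 mouse per dose, dose and mouse cannot be told apart.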
